A study of Mus musculus with 10 samples.

Results

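The genes examined here are 10 that mark Müller glia, the radial glia of the retina: Rlbp1, Glul, Slc1a3, Sox9, Sox2, Aqp4, Kcnj10, Vim, Apoe and Dkk3. They were chosen by name, and every peak that the deposited peak table assigned to one of them was taken, which gave 46 of 108253 peaks and 10 of 25400 genes with a peak. Of these 46 peaks, 9 were promoter peaks (of 17144) and 37 were not; 22 of the latter were distal intergenic, 12 intronic, 2 exonic and 1 downstream of a gene. Aqp4 was the member without a promoter peak. The number of peaks per gene ranged from 1 at Apoe, Sox2, Sox9 and Vim to 2 at Glul and Rlbp1, 4 at Kcnj10, 7 at Aqp4, 11 at Dkk3 and 16 at Slc1a3, against a median of 2 per gene in the whole table.

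Müller glia span the whole thickness of the retina and serve its neurons. They clear glutamate through the transporter encoded by Slc1a3 and turn it into glutamine with the enzyme encoded by Glul, and they drain potassium and water through the Kir4.1 channel (Kcnj10) and aquaporin 4 (Aqp4). Rlbp1 encodes the retinaldehyde-binding protein of the visual cycle, Sox2 and Sox9 are transcription factors that glia keep from the progenitor state, and Vim, Apoe and Dkk3 encode an intermediate filament protein, a lipid carrier and a secreted Dickkopf-family protein.

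CUT&Tag, which maps a chromatin mark by antibody-directed tagging of nearby DNA, was performed for lactylated histone H3 lysine 18 (H3K18La) and acetylated histone H3 lysine 27 (H3K27Ac), a mark of active promoters and enhancers. Retinas of wild-type C57BL/6J mice at postnatal day 28, freed of sclera and pigment epithelium, were cultured for 48 h in medium with 5 mM or 25 mM glucose and dissociated, and 500000 cells were used per assay. Each glucose level had 3 H3K18La libraries and 2 H3K27Ac libraries, all labelled batch 1. The comparison of 25 mM with 5 mM glucose asks how the marks respond to glucose supply, and the comparison of the marks at 25 mM asks where acetylation and lactylation differ. The cultures hold all cells of the neural retina, so a change in the share of Müller glia and a change in the mark per glial cell cannot be told apart.

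Peak values were RPKM (reads per kilobase of peak and per 1000000 reads of the library), with denominators of 1358008 to 7424470 reads per library. Reads in peaks made up 11.8% to 12.01% of the H3K18La reads at 5 mM and 31.2% to 35.0% at 25 mM, and 21.1% to 31.5% and 56.5% to 69.5% of the H3K27Ac reads, so this share differed between the glucose levels with no overlap for either mark and cannot be told apart from the glucose effect. The median peak moved with it, by 0.76 (H3K18La) and 0.58 (H3K27Ac) on the log2(RPKM + 0.5) scale, and the median gene locus by 0.69 and 0.70; the distance from these medians is given below for the 10 loci and for the peaks that passed and are described with a fold change. With libraries scaled to their reads in peaks, the median locus was at -0.21 in both marks, and with libraries centred on their median it was at 0.10 (H3K18La) and 0.11 (H3K27Ac). The table has as many peaks as the merged H3K18La consensus set that the study built from developing retina, so its regions appear to be that set and not peaks called in these explant libraries or for H3K27Ac; peaks per gene, reads in peaks and the comparison of the marks are all relative to it. The 46 peaks were sparsely covered: their median was 1 to 4 reads in the H3K18La libraries and 4 to 12 in the H3K27Ac libraries, and 22 of the 46 held no read in the shallowest library, replicate 3 of H3K18La at 5 mM. Summed promoter RPKM of 8 rod genes, the most abundant cells of the mouse retina, was 12.6 to 16.7 at 5 mM and 59.6 to 147 at 25 mM for H3K18La, and 52.6 to 95.1 and 252 to 453 for H3K27Ac. The 9 promoter peaks of the Müller glia genes summed to 7.19 to 9.24 and 15.6 to 19.3 (H3K18La), and to 18.1 to 22.5 and 38.9 to 47.6 (H3K27Ac), in the same order. The part of rods in the values at the Müller glia genes was not tested.

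RefSeq promoter sequences of build GRCm38.p6, the build of the peak table, were available for 7 of the 10 genes, and the 250 bases before the start site are shown for 4 of the 5 genes that have such a window wholly inside their own promoter peak; Apoe, which has several entries, is not shown. Glul and Rlbp1 had the highest H3K27Ac of the 10 genes at 25 mM, Kcnj10 rose in H3K18La over its locus, and Vim passed in neither mark. Capitals mark GGGCGG (the GC box bound by SP factors) and ACAANG (the core of SOX factor sites), on either strand. The window is chr1:153899679-153899928 (plus strand) for Glul, chr1:172340960-172341209 (plus) for Kcnj10, chr7:79387028-79387277 (minus) for Rlbp1 and chr2:13574061-13574310 (plus) for Vim.
Glul: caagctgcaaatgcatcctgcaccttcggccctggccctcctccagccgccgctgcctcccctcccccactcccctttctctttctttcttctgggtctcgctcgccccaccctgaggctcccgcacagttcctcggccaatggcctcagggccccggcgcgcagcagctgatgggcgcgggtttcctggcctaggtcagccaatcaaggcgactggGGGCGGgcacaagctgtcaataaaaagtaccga
Kcnj10: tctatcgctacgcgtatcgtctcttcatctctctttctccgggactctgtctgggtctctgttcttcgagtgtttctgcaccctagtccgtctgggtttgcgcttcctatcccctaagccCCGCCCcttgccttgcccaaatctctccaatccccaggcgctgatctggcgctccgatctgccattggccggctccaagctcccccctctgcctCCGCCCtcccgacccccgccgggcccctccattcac
Rlbp1: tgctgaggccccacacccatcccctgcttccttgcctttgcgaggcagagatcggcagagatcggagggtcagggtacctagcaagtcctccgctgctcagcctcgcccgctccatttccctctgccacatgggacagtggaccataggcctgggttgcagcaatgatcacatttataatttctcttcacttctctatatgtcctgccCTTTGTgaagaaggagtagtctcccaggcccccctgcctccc
Vim: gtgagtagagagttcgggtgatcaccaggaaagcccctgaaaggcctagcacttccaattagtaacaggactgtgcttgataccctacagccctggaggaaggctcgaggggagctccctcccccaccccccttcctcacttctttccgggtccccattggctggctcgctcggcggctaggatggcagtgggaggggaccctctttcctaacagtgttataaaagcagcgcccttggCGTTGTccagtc

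Glul held 1 GC box and Kcnj10 held 2, and Rlbp1 and Vim held none; Rlbp1 and Vim each held 1 SOX core and Glul and Kcnj10 held none. The matches did not overlap. Over all 32851 promoter windows of this length, 32.7% held a GC box and 36.3% a SOX core, and TAATCC (the photoreceptor homeobox site) was in 6.25% and in none of the 4 shown. The GC content of the windows was 64.8% at Glul, 62.0% at Kcnj10, 57.2% at Rlbp1 and 58.4% at Vim, against a median of 52.4% over all windows. Among whole promoter peaks, Sox2 (69.0% GC) and Sox9 (67.2%) were the most GC-rich of the 9, at percentiles 95.4 and 92.4 of all promoter peaks, and the median of the 9 (56.7%) was near that of all promoter peaks (57.5%). The 37 other peaks had a median of 49.6%, beside 48.8% for all non-promoter peaks.

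At the gene locus, where reads were summed over all peaks of a gene, Glul had the highest mean of the 10 genes in every group of libraries. H3K27Ac at Glul was 4.32 and 5.35 RPKM at 5 mM and 14.4 and 11.9 at 25 mM, with a 25 mM mean at percentile 84.6 of all loci. At 25 mM, Rlbp1 (7.07 and 5.04) and Kcnj10 (5.11 and 3.34) followed and overlapped each other, and both lay above Slc1a3 (3.02 and 2.66) and Dkk3 (2.76 and 2.90). Slc1a3 overlapped Apoe (2.02 and 2.68), and Apoe overlapped Aqp4 (2.30 and 1.85) and Vim (2.42 and 1.76). Sox2 (1.81 and 1.25) overlapped Vim only, and Sox9 (0.902 and 0.582) lay below every other gene, at percentile 22.0. H3K18La spanned a narrower range at 25 mM, from a mean of 0.299 ± 0.272 (SD, n = 3) at Sox9 to 3.63 ± 0.797 at Glul, and Glul was above each other gene but Rlbp1, whose libraries spread from 0 to 3.17.

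**Figure D1:**
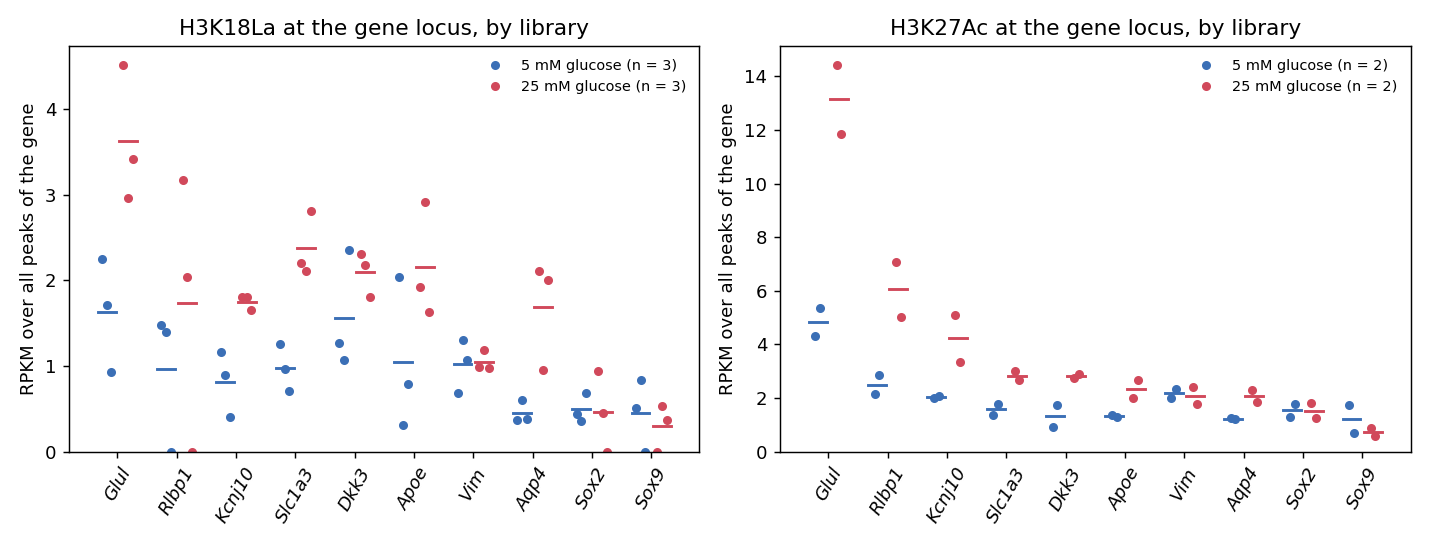
RPKM summed over all peaks of each gene (y axis) for the 10 genes (x axis, ordered by mean H3K27Ac at 25 mM), with H3K18La left and H3K27Ac right. Points are libraries, horizontal bars are group means. Glul is highest in both panels, and the 5 mM and 25 mM points of Vim, Sox2 and Sox9 overlap.

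H3K18La rose at 4 of the 10 loci at 25 mM glucose (limma across all 25400 loci, Benjamini-Hochberg adjusted p under 0.05), a share of 40.0% beside 37.0% of all loci that rose. None fell, beside 0.465% of all loci. The 4 genes were Slc1a3, Glul, Kcnj10 and Aqp4, and their share was near that of all loci. The rise at Apoe, which did not pass, was larger than that at Kcnj10. The median log2 fold change of the 10 loci was 0.63, beside 0.69 for all loci. Relative to the median locus, the H3K18La values that did not pass were 0.21 at Apoe, -0.26 at Rlbp1, -0.32 at Dkk3, -0.65 at Vim, -0.85 at Sox2 and -0.89 at Sox9. Those of H3K27Ac were 0.42 at Rlbp1, 0.20 at Dkk3, 0.17 at Kcnj10, -0.01 at Slc1a3, -0.07 at Apoe, -0.13 at Aqp4, -0.71 at Sox2, -0.75 at Vim and -1.11 at Sox9. When each library was instead centred on its median none of the 4 passed, and when libraries were scaled to their reads in peaks Glul (-0.21), Kcnj10 (-0.19) and Slc1a3 (-0.11) changed sign while Aqp4 stayed positive (0.29). Over all loci, 9399 rose and 118 fell in H3K18La by limma, against 2958 and 420 with centring and 105 and 213 with scaling to reads in peaks.

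At Slc1a3, the glutamate transporter gene, H3K18La was 1.26, 0.960 and 0.709 RPKM at 5 mM and 2.20, 2.11 and 2.81 at 25 mM, so the groups did not overlap. The log2 fold change was 0.97 (SE 0.22, adjusted p = 0.00832, limma), 0.28 above the median locus. H3K27Ac was 1.37 and 1.80 at 5 mM and 3.02 and 2.66 at 25 mM, also without overlap, and its log2 fold change of 0.69 (SE 0.27) missed the threshold (adjusted p = 0.0879, limma).

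Slc1a3 held 16 peaks, 11 of which were intergenic at 10403 to 55631 bases from the assigned start site. That start belongs to a retained-intron transcript, and the start of the coding transcript lies farther from these peaks. Their link to the gene rests on this assignment. Of the 11, 3 gained H3K18La, beside 25.9% of all peaks that rose. The intergenic peaks at -72392 and -75371 bases from the coding start did not pass. The 3 peaks were named after their values were seen. At chr15:8595830-8597348 H3K18La was 1.25, 1.14 and 0.485 at 5 mM and 4.02, 4.05 and 3.77 at 25 mM (log2 fold change 1.65, 0.89 above the median peak, SE 0.40, adjusted p = 0.00627, limma). At chr15:8604808-8606775 it was 0.964, 0.980 and 0.748 against 2.33, 3.75 and 4.28 (1.47, 0.71 above the median peak, SE 0.40, adjusted p = 0.0123, limma). Both groups of values were separate at these peaks, which were 1519 and 1968 bases long. At chr15:8627175-8628295 the groups overlapped, with 2.11, 1.03 and 0 at 5 mM and 4.08, 1.97 and 4.51 at 25 mM (1.61, 0.85 above the median peak, SE 0.54, adjusted p = 0.0376, limma), and the call was lost in 8 of 10 fits that left out 1 library, with adjusted p of up to 0.141 without replicate 3 of H3K18La at 5 mM. The call at chr15:8604808-8606775 was lost without replicate 3 of H3K18La at 25 mM (adjusted p = 0.0538).

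The strongest non-promoter peak of Slc1a3, chr15:8629130-8629786, had the highest mean RPKM of the gene's peaks. H3K18La was 4.33, 2.35 and 2.24 at 5 mM and 4.65, 4.49 and 7.70 at 25 mM, with a log2 fold change of 0.83 (SE 0.35) that did not pass (adjusted p = 0.0979, limma). H3K27Ac was 4.93 and 6.86 against 6.35 and 6.56, which overlapped. At the promoter peak, chr15:8710249-8710739, H3K18La was 1.93, 1.18 and 1.50 at 5 mM and 0, 0.501 and 6.87 at 25 mM, so a single library of 10 reads, replicate 3, carried the 25 mM mean. Its log2 fold change was -0.38 (SE 0.69) and did not pass; without that library it was -1.51 and passed (adjusted p = 0.0371, limma), and without replicate 1 at 25 mM it was 0.43. H3K27Ac at the promoter was 2.83 and 2.95 against 5.10 and 5.21, without overlap (log2 fold change 0.74, SE 0.85, adjusted p = 0.70, limma). The SE is pooled over all groups, so it also reflects the wide H3K18La values at this peak.

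Glul, the glutamine synthetase gene, held most of its reads in the promoter peak. In RPKM, mean H3K18La at 5 mM was 1.65 there and 1.52 at its other, shorter peak. In the promoter peak, chr1:153899311-153902072, H3K18La was 2.06, 1.82 and 1.07 RPKM at 5 mM and 4.97, 3.03 and 3.78 at 25 mM, and the groups were separate. H3K18La rose there with a log2 fold change of 1.05 (SE 0.34, adjusted p = 0.0334, limma), 0.29 above the median peak, and -0.15 when libraries were scaled to their reads in peaks. It was the only one of the 9 promoter peaks to pass, beside 30.0% of promoter peaks counted once per gene. The call stood in 11 of 19 alternative fits. It was lost with libraries centred on their median and in 5 of 10 fits without 1 library, the highest adjusted p in limma being 0.112 without replicate 1 of H3K18La at 25 mM. H3K27Ac there was 4.77 and 5.89 against 16.4 and 13.5, the largest H3K27Ac of any of the 46 peaks at 25 mM, and its log2 fold change of 1.40 (SE 0.42) missed the threshold (adjusted p = 0.0652, limma).

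Over the Glul locus both marks passed. H3K18La was 2.25, 1.71 and 0.933 at 5 mM and 4.51, 2.96 and 3.42 at 25 mM (log2 fold change 0.99, 0.29 above the median locus, SE 0.27, adjusted p = 0.0190, limma), and leaving out replicate 3 of H3K18La at 5 mM (adjusted p = 0.0557) or replicate 1 at 25 mM (0.0655) ended the call. H3K27Ac rose by 1.35 (SE 0.33, adjusted p = 0.0194, limma), 0.66 above the median locus; it did not pass with libraries centred on their median (0.77, adjusted p = 0.159, limma) or scaled to reads in peaks (0.15, adjusted p = 0.935, limma). It was the only member locus to rise in H3K27Ac, 1 of 10 beside 28.3% of all loci. Without replicate 1 of H3K27Ac at 5 mM the log2 fold change was 1.21, and without that at 25 mM it was 1.22. The call did not stand in either fit, but each leaves 1 library in a group and lost the calls at all loci. No member locus fell in H3K27Ac, beside 0.0709% of all loci. The second Glul peak, chr1:153918732-153919127, held 0 to 4 reads in any library, with H3K27Ac of 1.17 and 1.63 at 5 mM against 1.05 and 0.340 at 25 mM, lower without overlap (log2 fold change -0.72, SE 0.79).

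**Figure D2:**
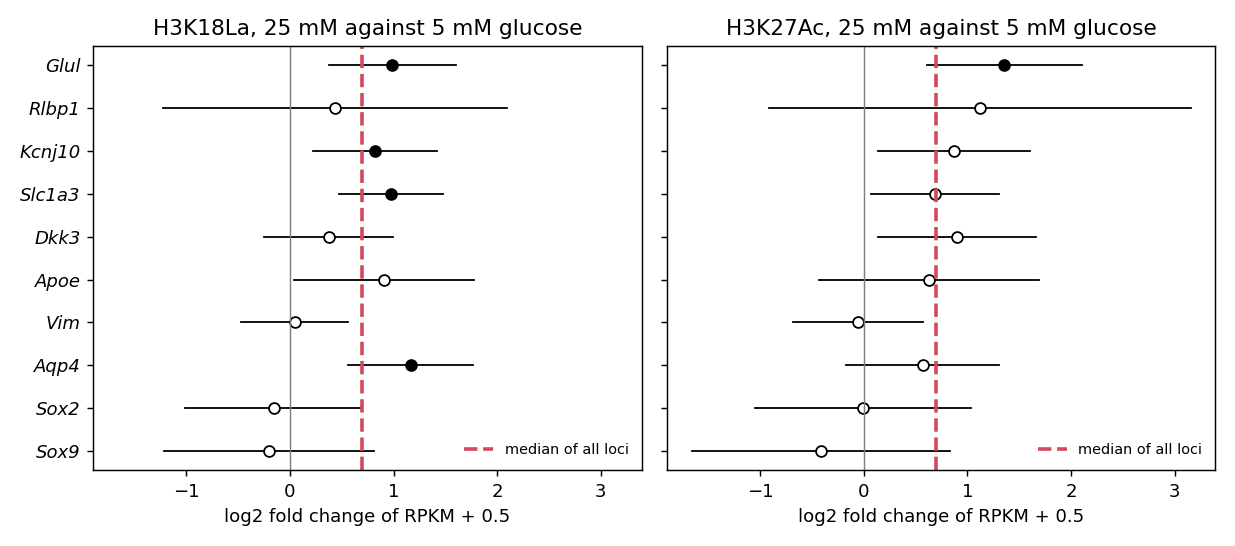
Log2 fold change of RPKM + 0.5, 25 mM against 5 mM glucose (x axis), for each gene locus (y axis), with H3K18La left and H3K27Ac right. Points are limma estimates with 95% confidence intervals, filled where the adjusted p was under 0.05, and the dashed line is the median of all 25400 loci. Aqp4, Slc1a3, Glul and Kcnj10 are filled for H3K18La and Glul for H3K27Ac; scaled to reads in peaks, the H3K18La values of Slc1a3, Glul and Kcnj10 turn negative.

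Aqp4 showed the largest H3K18La gain of the 10 loci. H3K18La over its 7 peaks was 0.368, 0.599 and 0.381 RPKM at 5 mM and 2.10, 0.954 and 2.01 at 25 mM, without overlap, and rose by 1.17 on the log2 scale (SE 0.27, adjusted p = 0.00831, limma), 0.47 above the median locus. The call stood in all 10 fits that left out 1 library. These values rested on 2 to 12 reads per library at 5 mM and 15 to 23 at 25 mM. H3K27Ac was 1.26 and 1.21 against 2.30 and 1.85, with a log2 fold change of 0.57 (SE 0.33, adjusted p = 0.229, limma).

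Among the 7 Aqp4 peaks, the gains that passed were at an intronic peak and a distal one. All 7 had an H3K18La log2 fold change above 0, as did 87881 of all 108253 peaks. The peak 1973 bases past the assigned start, in intron 1, had H3K18La of 0.522, 0.425 and 0 at 5 mM and 2.80, 1.08 and 2.60 at 25 mM (log2 fold change 1.70, 0.94 above the median peak, SE 0.46, adjusted p = 0.0130, limma), while its H3K27Ac overlapped at 3.31 and 2.48 against 3.67 and 2.97. Without replicate 1 of H3K18La at 25 mM that rise did not pass (adjusted p = 0.0512, limma). The distal peak at -22995 bases from the start had no H3K18La read in the 3 libraries at 5 mM and 3, 1 and 6 reads at 25 mM, at least 3.20-fold higher when 3 reads over the 5 mM group are taken as the floor (adjusted p = 0.00365, limma). Its H3K27Ac was 0.688 and 0.479 at 5 mM and 4.14 and 1.20 at 25 mM, which did not overlap and did not pass. The strongest peak, 5530 bases past the start, in intron 1 of another transcript, had H3K18La of 0, 2.09 and 2.66 against 3.67, 2.66 and 4.87 (log2 fold change 1.37, SE 0.57, adjusted p = 0.0883, limma) and H3K27Ac of 1.67 and 3.49 against 6.02 and 5.35.

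Kcnj10, the Kir4.1 channel gene, had H3K18La of 1.16, 0.893 and 0.401 RPKM at 5 mM and 1.80, 1.81 and 1.65 at 25 mM over its locus, without overlap. The rise of 0.82 (SE 0.27, adjusted p = 0.0366, limma) was 0.12 above the median locus and was lost in 7 of 10 fits without 1 library, with adjusted p of up to 0.102 without replicate 3 of H3K18La at 5 mM. Counting the other alternatives too, it passed in 8 of 19 fits. H3K27Ac was 2.01 and 2.06 against 5.11 and 3.34, with a log2 fold change of 0.87 (SE 0.33, adjusted p = 0.0721, limma). The H3K18La gain that passed lay in the intron at chr1:172354960-172355751, with 0, 0.244 and 0 at 5 mM (1 read in all) and 3.85, 1.24 and 0.851 at 25 mM (log2 fold change 1.93, 1.17 above the median peak, SE 0.52, adjusted p = 0.0122, limma); without replicate 1 of H3K18La at 25 mM its adjusted p was 0.0663. The strongest intronic peak, chr1:172349724-172351111, overlapped in H3K18La (2.05, 1.67 and 1.06 against 1.10, 2.30 and 2.43) and was separate in H3K27Ac (2.33 and 2.67 against 6.01 and 3.88). The promoter peak, chr1:172340621-172341773, had H3K18La of 0.822, 0.502 and 0 at 5 mM and 1.32, 1.49 and 0.877 at 25 mM, without overlap (log2 fold change 0.97, SE 0.48, adjusted p = 0.147, limma). Its H3K27Ac was 1.20 and 1.68 against 4.58 and 3.27 (log2 fold change 1.19, SE 0.59, adjusted p = 0.259, limma).

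Rlbp1, the visual cycle binding protein gene, was second in H3K27Ac at 25 mM but too thinly covered in H3K18La for a firm statement. Its promoter peak, chr7:79386949-79387584, had H3K27Ac of 2.18 and 4.05 at 5 mM and 10.1 and 6.78 at 25 mM, without overlap (log2 fold change 1.33, SE 0.87, adjusted p = 0.424, limma). This SE pools the spread of all groups, the H3K18La libraries included. With H3K27Ac fitted alone, 3 of the 9 Müller glia promoter peaks passed, beside 6186 of all 14562 that rose. H3K18La at the Rlbp1 promoter peak was 0.745, 1.82 and 0 against 4.00, 2.71 and 0, from 0 to 7 reads per library. Its other peak, chr7:79366169-79366495, held 0 to 4 reads per library. Over the locus the log2 fold changes were 0.44 (SE 0.74) for H3K18La and 1.12 (SE 0.91) for H3K27Ac, and neither passed.

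The transcription factor genes Sox2 and Sox9 and the filament gene Vim had values that did not separate between the glucose levels in either mark. At the Vim promoter peak, chr2:13573387-13575450, H3K18La was 0.689, 1.31 and 1.07 RPKM at 5 mM and 0.986, 1.19 and 0.980 at 25 mM, and H3K27Ac was 2.02 and 2.34 against 2.42 and 1.76. The log2 fold changes over the locus were 0.05 (95% interval -0.47 to 0.56) and -0.06 (-0.69 to 0.57). Both intervals ended below the median of all loci. Scaled to reads in peaks, the values were -0.999 and -0.989, and neither passed (adjusted p = 0.0697 and 0.805, limma).

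At the Sox2 promoter peak, chr3:34650286-34651361, H3K18La was 0.441, 0.359 and 0.684 against 0.946, 0.457 and 0, and H3K27Ac 1.29 and 1.80 against 1.81 and 1.25, with log2 fold changes of -0.16 (95% interval -1.01 to 0.70) and -0.01 (-1.05 to 1.03). At the Sox9 promoter peak, chr11:112782239-112783163, H3K18La was 0.513, 0.834 and 0 against 0, 0.532 and 0.364, and H3K27Ac 1.75 and 0.696 against 0.902 and 0.582. These came to log2 fold changes of -0.20 (-1.21 to 0.81) and -0.41 (-1.66 to 0.83), and the intervals of both genes include the median of all loci. Sox2 and Sox9 held 0 to 4 H3K18La reads and 4 to 14 H3K27Ac reads in each library. When each library was centred on its median, the 3 genes had log2 fold changes of -0.55 to -0.79 in H3K18La and -0.60 to -1.001 in H3K27Ac, and none passed (adjusted p of 0.151 or more, limma).

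Apoe, the lipid carrier gene, had 1 peak at its promoter, chr7:19697424-19699280. H3K18La was 2.04, 0.312 and 0.793 RPKM at 5 mM and 1.92, 2.91 and 1.63 at 25 mM, which overlapped through replicate 1 at 5 mM, and the log2 fold change over the locus of 0.91 (SE 0.39) did not pass (adjusted p = 0.0909, limma). H3K27Ac was 1.37 and 1.30 against 2.02 and 2.68, without overlap (0.63, SE 0.47, adjusted p = 0.364, limma).

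Dkk3, the secreted Dickkopf-family gene, had H3K18La of 1.27, 1.07 and 2.35 RPKM at 5 mM and 2.31, 2.18 and 1.81 at 25 mM over its 11 peaks, which overlapped (log2 fold change 0.38, SE 0.28), and H3K27Ac of 0.929 and 1.73 against 2.76 and 2.90, which did not (0.90, SE 0.34, adjusted p = 0.0739, limma). All 11 peaks had an H3K27Ac log2 fold change above 0, and 8 of 11 an H3K18La one, beside 84558 and 87881 of all 108253 peaks. The strongest non-promoter peak, chr7:112127286-112128548 in intron 4, had H3K18La of 1.50, 1.37 and 7.58 against 2.42, 3.89 and 3.20, and replicate 3 at 5 mM (13 reads) was the highest of all. The promoter peak, chr7:112159197-112159550, had H3K18La of 0, 0.545 and 2.08 against 1.44, 2.78 and 4.76 (1.54, SE 0.57, adjusted p = 0.0582, limma) and H3K27Ac of 0.653 and 1.82 against 4.32 and 3.80.

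One Dkk3 peak was singled out after its values were seen. At chr7:112144488-112145032, in intron 4, H3K18La was 3.48, 2.48 and 2.70 at 5 mM and 1.87, 2.26 and 0.619 at 25 mM, lower without overlap, and H3K27Ac was 0 and 1.48 against 2.81 and 3.71, higher without overlap. The difference between the marks in glucose response, on the log2 scale, was -2.70 (SE 0.83) with an unadjusted p of 0.00482 from limma, and it failed the correction (adjusted p = 0.971). No peak of the 46 passed in this test, and none of all 108253 peaks did, a share of 0.0%. At an unadjusted limma p under 0.05, 1 of the 46 was lower and 0 were higher, beside 1515 lower and 3473 higher of all peaks.

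**Figure D3:**
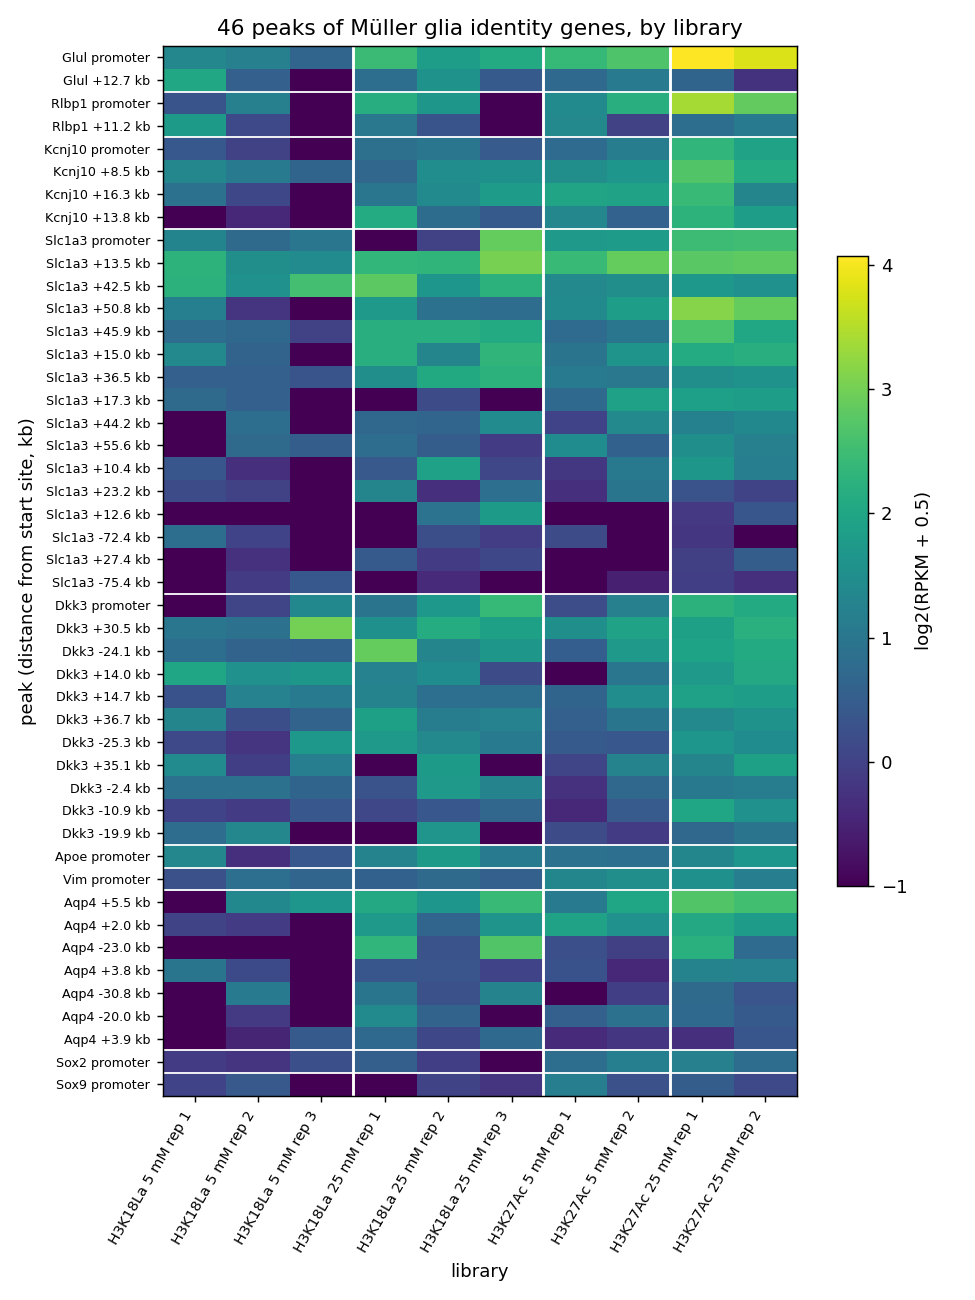
Log2(RPKM + 0.5) in the 46 peaks (rows, grouped by gene, each labelled as promoter or by its distance in kb from the assigned start site) and 10 libraries (columns, white lines between groups). The Glul promoter is brightest in the 25 mM H3K27Ac libraries, and dark cells at -1 are peaks with no read, of which H3K18La at 5 mM, replicate 3, has 22.

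Counted over peaks, H3K18La rose at 7 of 46 (15.2%), beside 25.9% of all 108253 peaks, and fell at none, beside 0.307% of all. The 7 were the Glul promoter and 6 of the 37 other peaks: 3 at Slc1a3, 2 at Aqp4 and 1 at Kcnj10. With libraries centred on their median 1 of the 46 passed, beside 7.31% of all peaks that rose, and with libraries scaled to reads in peaks none did, beside 0.00554%. The median log2 fold change of the 46 was 0.85, beside 0.76 for all peaks, and 36 of 46 were above 0, beside 87881 of all 108253. H3K27Ac passed at none of the 46 in limma, beside 4.13% of all peaks that rose and 0.0% that fell; 6 of the 46 were higher at an unadjusted p under 0.05, beside 21.2% of all peaks, voom on the recovered reads called 6, beside 21.0%, and the H3K27Ac libraries fitted alone gave 7, beside 16.4%. The median was 0.80, beside 0.58 for all peaks. With no overlap between the glucose levels, 12 of 46 peaks were higher in H3K18La (26.1%) and 30 in H3K27Ac (65.2%), beside 36.6% and 53.0% of all peaks, and 1 was lower in each mark, beside 0.821% and 6.37%.

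As a share of reads in peaks, the 46 peaks lost weight at 25 mM. They held 0.0403%, 0.0329% and 0.0355% of H3K18La reads in peaks at 5 mM and 0.0253%, 0.0247% and 0.0265% at 25 mM, and 0.0302% and 0.0256% of H3K27Ac against 0.0225% and 0.0236%. The glucose levels did not overlap in either mark. Per 1000000 reads of the library the same peaks gained, from 48.4, 39.2 and 42.0 reads to 88.5, 78.0 and 82.6 for H3K18La and from 63.8 and 80.8 to 156 and 133 for H3K27Ac. The denominators thus gave opposite directions for the set as a whole.

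**Figure D4:**
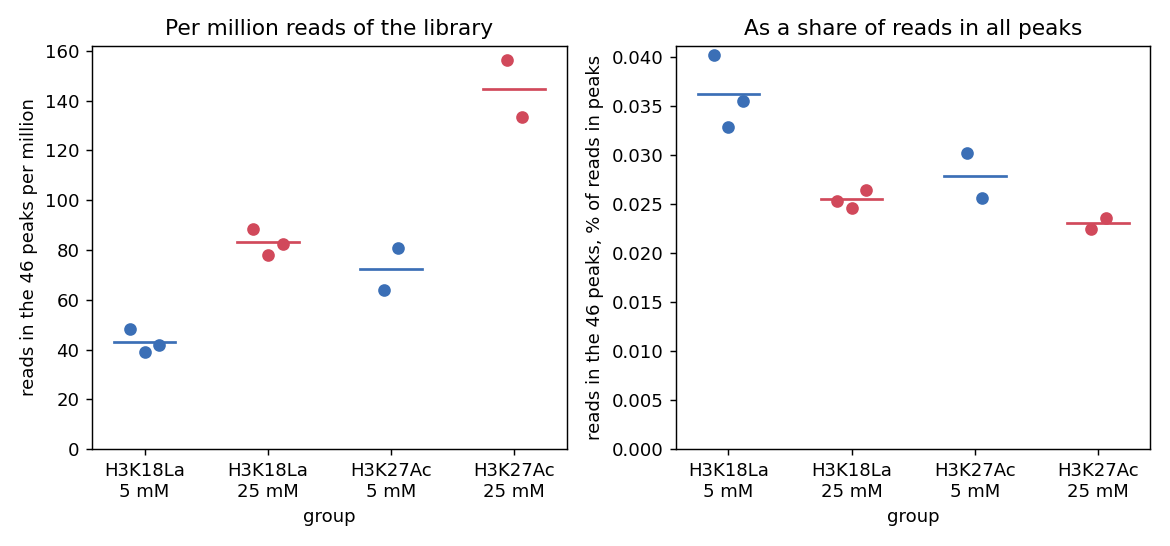
Reads in the 46 peaks per 1000000 reads of the library (left, y axis) and as a percentage of reads in all peaks (right, y axis), by mark and glucose level (x axis); points are libraries, lines are group means. The 25 mM libraries lie above the 5 mM libraries of the same mark on the left and below them on the right.

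The marks were compared at 25 mM after each library was centred on its median peak. H3K27Ac exceeded H3K18La at 2 of the 46 peaks (4.35%), beside 12.4% of all peaks, and was below it at none, beside 2.3% of all. At the Glul promoter H3K27Ac was 16.4 and 13.5 RPKM and H3K18La 4.97, 3.03 and 3.78, with a centred log2 difference of 1.58 (SE 0.35, adjusted p = 0.00702, limma). Without replicate 1 of H3K27Ac at 25 mM the difference was 1.46 and did not pass. That fit leaves 1 library in its group, and most calls over all peaks were lost in it. At the Slc1a3 peak chr15:8625501-8625899, named after its values were seen, H3K27Ac was 3.14 and 3.04 and H3K18La 0, 0.616 and 0, which is 1 read in all (2.21, SE 0.63, adjusted p = 0.0279, limma). This call was lost in 4 of 10 fits without 1 library. It was also lost with a replicate block, with a pseudocount of 0.1 and with scaling to reads in peaks. Rlbp1 had the largest centred difference of the promoter peaks, 1.94 (SE 0.78), and did not pass (adjusted p = 0.117, limma).

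A list of 25 other genes of Müller glia, several of which other retinal cells also use, gives context. Of these, 20 had a promoter peak, and their summed RPKM was 27.2 to 33.9 at 5 mM and 90.8 to 122 at 25 mM for H3K18La, and 83.2 to 133 and 272 to 374 for H3K27Ac, with no overlap. H3K18La rose at 9 of the 20 and fell at none, beside 30.0% of promoter peaks counted once per gene that rose, with a median log2 fold change of 1.16, beside 0.88; the largest was at Slc38a3, a glutamine transporter gene (2.52, SE 0.33, adjusted p = 0.000306, limma), and the smallest at Hes1, a Notch target (0.31, SE 0.46). H3K27Ac rose at 5 of the 20, beside 9.74% of promoter peaks, with a median of 0.93, beside 1.16; again Slc38a3 was highest (2.24, SE 0.40, adjusted p = 0.0341, limma) and Timp3, a metalloproteinase inhibitor gene, lowest (0.07, SE 0.58). The 9 promoter peaks of the 10 Müller glia identity genes had medians of 0.77 and 0.74. Of the rod genes, 8 of 8 promoter peaks rose in H3K18La and 7 of 8 in H3K27Ac, beside the same 30.0% and 9.74%, with medians of 2.47 and 2.13. With libraries centred on their median, H3K18La rose at 3 of the 20 Müller glia genes and 6 of the 8 rod genes, beside 7.01% of all promoter peaks, and with scaling to reads in peaks at none of either and at 2 of all 14562 promoter peaks. H3K27Ac rose at no promoter peak at all, in these lists or outside them, with centring, scaling to reads in peaks, a pseudocount of 0.1 or moderation without the robust option, or in 6 of 10 fits that left out 1 library, while voom called 9 of the 20, 8 of the 8 and 7882 of all (54.1%).

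Promoter peaks of other retinal cells were few, and the shares over all promoter peaks to set beside their counts are again 30.0% for H3K18La and 9.74% for H3K27Ac. H3K18La rose at 3 of 6 cone genes with a promoter peak, at 0 of 4 bipolar, 1 of 3 amacrine, 0 of 2 ganglion cell, 0 of 1 microglial, 0 of 1 astrocyte, 0 of 2 vascular and 1 of 2 pigment epithelium genes. H3K27Ac rose at 1 of the 4 bipolar genes and at none of the others. With libraries centred on their median, H3K18La rose at none of these genes and fell at 1 of the 2 vascular ones, beside 7914 rises and 932 falls among all 108253 peaks. H3K27Ac passed at none with centring, and with libraries scaled to reads in peaks neither mark passed at any. Of the 3 astrocyte genes, which overlap in use with Müller glia, 1 had a promoter peak, with H3K18La summed RPKM of 0 to 3.24 at 5 mM and 0 to 1.15 at 25 mM. Its H3K27Ac was 2.37 to 3.30 at 5 mM and 0.949 to 2.30 at 25 mM, lower without overlap, and did not pass. Over the 2 vascular promoter peaks the summed H3K27Ac was 5.57 to 5.66 at 5 mM and 3.83 to 4.62 at 25 mM, also lower without overlap, and their H3K18La overlapped at 1.69 to 6.04 against 1.06 to 2.09. The median log2 fold changes of the vascular genes were -0.85 in H3K18La and -0.65 in H3K27Ac, beside 0.88 and 1.16 for all promoter peaks.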

How the data were processed

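The deposited table gives RPKM of 10 CUT&Tag libraries in consensus peaks, whose number equals that of the merged H3K18La peaks of developing retina in the study. The authors aligned reads to GRCm38, called peaks with MACS, assigned each to a gene and class with ChIPseeker 1.34.1 (promoter: 1000 bp upstream to 500 bp downstream of a start) and tested them with edgeR 3.40.2, per the labels and the study's methods, which describe peak quantitation by CSAW with normalization over wide genomic windows for those merged peaks; whether the same was done for the explant RPKM is not given in the sources used here. A second deposited file with the authors' H3K18La fold changes, p-values and group means was not used. The extraction protocol in the labels names an H3K9me3 antibody beside that for H3K18La, whereas the sample labels and the study's methods name H3K27Ac, which was followed here.

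RPKM values were whole multiples of 1 read in every library (100% within 0.01 read), which gave reads and denominators; whether the denominators include a normalization factor is not given in the sources used here. limma 3.58.1 (R 4.3.3) with trend and robust moderation was fitted to log2(RPKM + 0.5) of all peaks, or of loci (all peaks of a gene summed), in all 10 libraries with 4 group means, so the H3K27Ac groups of 2 share the spread of the other groups; p-values were Benjamini-Hochberg adjusted over all rows. The scripts were checked on simulated data. The study's methods speak of biological replicates, but which animals or cultures gave each library is not given in the sources used here, so p-values measure the spread between libraries. Chi-square per degree of freedom between replicates was 1.04 to 1.06 for H3K18La at 5 mM, close to counting noise, 1.14 to 1.84 at 25 mM, and 1.21 and 2.87 for H3K27Ac.

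The members, lists and named peaks (strongest promoter and non-promoter peak of each gene by mean RPKM, plus the 3 largest rises and falls per mark) were chosen with earlier results of these data known. Alternatives: pseudocounts 0.1 and 1, mean RPKM of at least 1, median centring, reads in peaks, non-robust moderation, voom, replicate block, threshold 0.01, each mark alone and each library left out.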

Additional observations from a re-analysis of the deposited data

How the results depend on the processing

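These limits apply to all values: most H3K18La values at these genes rest on under 10 reads, leaving a library out of a group of 2 assumes that the lone library varies like the other groups, and the scaling of the libraries decides many directions. The cause of each change below was not tested. Percentages in brackets are the share of all peaks or loci that were higher in the same alternative. Where a library is left out, the lowest and highest values of the 10 fits are given.

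Of the 46 peaks, 7 rose in H3K18La (25.9%), against 1 with libraries centred on the median (7.31%), 0 with scaling to reads in peaks (0.00554%), 2 at a threshold of 0.01 (13.9%) and 5 to 10 with 1 library left out, the 5 being without replicate 1 of H3K18La at 25 mM or either H3K27Ac library at 25 mM. H3K27Ac passed at 0 peaks (4.13%), against 3 with a pseudocount of 1 (10.2%), 1 with a mean RPKM of at least 1 (10.8%), 6 with voom (21.0%), 7 with each mark fitted alone (16.4%) and 0 to 2 with 1 library left out (2 without replicate 3 of H3K18La at 5 mM). The difference in glucose response between the marks passed at 0 peaks in every alternative. The comparison of the marks at 25 mM passed at 2 peaks (12.4%), against 1 with a pseudocount of 0.1 (6.41%), with scaling to reads in peaks (5.63%) and at a threshold of 0.01 (6.88%), 8 with voom (21.4%) and 0 to 3 with 1 library left out. The 0 came without replicate 1 of H3K27Ac at 25 mM, a fit that leaves 1 library in that group and loses most calls over all peaks. Of the 10 loci, 4 rose in H3K18La (37.0%), against 0 with centring (11.6%), 0 with reads in peaks (0.413%), 2 at 0.01 (20.6%) and 2 to 5 with 1 library left out (2 without replicate 3 at 5 mM or replicate 1 at 25 mM). For H3K27Ac 1 locus rose (28.3%), against 2 with a pseudocount of 1 (36.0%), 0 with centring, with reads in peaks and at 0.01 (0.0% each), 4 with voom (44.6%), 4 with each mark alone (43.3%) and 0 to 3 with 1 library left out. The 0 came without replicate 1 of H3K27Ac at either glucose level, fits that leave 1 library in a group and lost the calls at all loci.

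Replicate numbers gave no clear pairing of the libraries: deviations of same-numbered libraries of a mark correlated at 0.0132 to 0.0288. Across marks at 25 mM those numbered 1 correlated at 0.193 and those numbered 2 at 0.0732, but H3K18La replicate 3 and H3K27Ac replicate 2 at 0.156. With 2 H3K27Ac libraries per glucose level these values cannot tell pairing from other shared variation. With a replicate block 10 peaks rose in H3K18La (27.4%), 1 passed between the marks (11.5%) and 2 loci rose in H3K27Ac (25.7%), while 4 loci rose in H3K18La and no peak passed in H3K27Ac, as without the block. At promoter peaks the block gave 2 of the 9 Müller glia genes in H3K18La against 1, beside the 27.4% of peaks of any class that rose. In H3K27Ac it gave 3 of the 20 other Müller glia genes against 5, with 727 of all promoter peaks against 1418. Over all peaks 2142 rose in H3K27Ac with the block and 4473 without it.

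Of 908 log2 fold changes of named peaks and loci under an alternative, 790 kept direction and side of the threshold, 34 no longer passed, 26 newly passed and 58 changed sign. Centring gave, at promoter and strongest non-promoter peaks, -0.58 for the Vim promoter in H3K18La, -0.42 (H3K18La) and -0.11 (H3K27Ac) for Dkk3, -0.21 for Glul and -0.43 for Kcnj10 in H3K18La, and -0.16 for Rlbp1, -0.30 for Slc1a3 and -0.26 for the Aqp4 intron peak 1973 bases from the start in H3K27Ac. At loci it gave -0.022 for Aqp4 in H3K27Ac, and -0.22 for Dkk3 and -0.15 for Rlbp1 in H3K18La. Scaling to reads in peaks gave, at promoters in H3K18La, -0.11 for Apoe, -0.15 for Glul and -0.999 for Vim, and in H3K27Ac -0.33 for Apoe and -0.37 for Slc1a3. At the strongest non-promoter peaks it gave in H3K18La -1.02 for Dkk3, -0.43 for Glul, -0.96 for Kcnj10 and -0.47 for Slc1a3, and in H3K27Ac -0.040 for Aqp4, -0.72 for Dkk3, -0.27 for Kcnj10, -0.60 for Rlbp1, -0.9997 for Slc1a3 and -0.87 for that Aqp4 intron peak. At loci it gave in H3K18La -0.79 for Dkk3, -0.21 for Glul, -0.19 for Kcnj10, -0.36 for Rlbp1 and -0.11 for Slc1a3, and in H3K27Ac -0.37 for Aqp4, -0.083 for Dkk3, -0.21 for Kcnj10, -0.0094 for Rlbp1 and -0.31 for Slc1a3. Voom gave -0.0070 for the Rlbp1 locus in H3K18La.

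With 1 library left out, promoter values that changed sign ran in H3K18La from -1.51 to 0.43 for Slc1a3, -0.51 to 0.26 for Sox2, -0.61 to 0.11 for Sox9 and -0.12 to 0.18 for Vim, and in H3K27Ac from -0.21 to 0.19 for Sox2, -0.87 to 0.042 for Sox9 and -0.24 to 0.13 for Vim. Strongest non-promoter peaks ran in H3K18La from -0.15 to 0.90 for Dkk3, -0.35 to 1.17 for Glul and -0.82 to 0.56 for Rlbp1, and in H3K27Ac from -0.42 to 0.98 for Rlbp1 and -0.082 to 0.36 for Slc1a3. The Rlbp1 locus ran from -0.21 to 1.31 in H3K18La, and the Aqp4 intron peak from -0.00252 to 0.35 in H3K27Ac.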
